A study of Homo sapiens with 21 samples.

Results

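Epithelial transcription and splicing regulators are described here as 9 genes: the grainyhead-like factors GRHL1, GRHL2 and GRHL3, the OVO-like zinc finger factors OVOL1 and OVOL2, the epithelial splicing regulatory proteins ESRP1 and ESRP2, and the epithelium-specific ETS factors ELF3 and EHF. They were chosen by symbol, and all 9 were found among the 53515 genes of the count files. RNA sequencing covered 17 established cancer cell lines in 21 libraries, 7 parental cell lines and 10 derivatives that resist a drug, and the question was how the levels of these regulators differ between a resistant cell line and the parental cell line it came from. HepG2 (liver) was the parental cell line of HepG2S1 and HepG2S3, which resist the kinase inhibitor sorafenib, and PancVB (pancreas) that of PancB1Q and PancB1V, which resist the antimetabolite 5-fluorouracil. HCC4006P1 was the parental cell line of the erlotinib-resistant HCC4006ER, HCC4006P2 that of the gefitinib-resistant HCC4006GR, and HCC827P that of the gefitinib-resistant HCC827GR, all from lung and with inhibitors of the EGF receptor. UWB1.289 (ovary) was the parental cell line of U10 and U100, which resist the PARP inhibitor olaparib, and IGROV-1 (ovary) that of IGROV-1/CDDP, which resists the DNA-crosslinking drug cisplatin. The lines sequenced in 2 libraries were HepG2 with HepG2S3 and HCC4006P1 with HCC4006ER, and 13 lines were sequenced in 1. Each resistant cell line stands for its own derivation, and nothing in the labels says that the repeated libraries came from separate cultures. In tests of the pairs with repeated libraries, p-values therefore measure the spread between these libraries. In a fit over 20 libraries, the spread comes only from the lines that kept 2 libraries, HepG2, HepG2S3 and HCC4006ER. In the comparison over the 7 parental cell lines, it is the spread of changes between cell lines.

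Grainyhead-like factors bind the regulatory regions of junction and barrier genes and keep them open in epithelial cells. OVOL factors repress the genes of ZEB1 and other drivers of epithelial-mesenchymal transition (EMT), ESRP1 and ESRP2 splice transcripts such as those of FGFR2 and CD44 into their epithelial forms, and ELF3 and EHF activate genes of epithelial differentiation. ZEB1, ZEB2 and the SNAI factors work in the other direction, binding E-boxes (CACCTG or CAGGTG on either strand) in epithelial genes, and ZEB1 and GRHL2 or OVOL2 are known to repress each other.

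Promoter sequences of RefSeq (GRCh38.p14) were matched by symbol for 4 of the 9 members, GRHL1, GRHL3, ELF3 and EHF, in 6 entries of 250 bases before and 50 bases after a start. GRHL2, OVOL1, OVOL2, ESRP1 and ESRP2 had no entry. The 250 bases before the start are printed for 1 entry of each of the 4 genes, in lower case with each E-box in capitals, since this is the site that the opposing ZEB and SNAI factors recognise.
GRHL1, chr2:9951443-9951692, plus strand: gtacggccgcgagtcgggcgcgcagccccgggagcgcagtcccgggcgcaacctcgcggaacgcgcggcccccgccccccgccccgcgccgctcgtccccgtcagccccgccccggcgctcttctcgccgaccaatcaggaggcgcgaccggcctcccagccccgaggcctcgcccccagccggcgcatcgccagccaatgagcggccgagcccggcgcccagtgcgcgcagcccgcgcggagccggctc
GRHL3, chr1:24319107-24319356, plus strand: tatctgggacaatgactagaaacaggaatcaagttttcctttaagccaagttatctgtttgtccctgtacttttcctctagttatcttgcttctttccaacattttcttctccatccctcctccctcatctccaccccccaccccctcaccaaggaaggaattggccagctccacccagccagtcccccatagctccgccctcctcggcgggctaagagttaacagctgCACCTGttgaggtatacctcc
ELF3, chr1:202010337-202010586, plus strand: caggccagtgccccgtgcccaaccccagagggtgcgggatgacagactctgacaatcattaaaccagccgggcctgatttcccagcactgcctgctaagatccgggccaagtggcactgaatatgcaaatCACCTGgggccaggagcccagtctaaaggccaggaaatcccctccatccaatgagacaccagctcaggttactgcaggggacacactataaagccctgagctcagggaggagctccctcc
EHF, chr11:34624007-34624256, plus strand: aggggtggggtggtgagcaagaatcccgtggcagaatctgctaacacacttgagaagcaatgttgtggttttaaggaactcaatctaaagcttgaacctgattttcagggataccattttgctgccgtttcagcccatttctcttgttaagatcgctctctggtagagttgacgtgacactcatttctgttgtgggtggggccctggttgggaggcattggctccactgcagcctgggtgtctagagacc
The E-box of GRHL3 begins 21 bases before the start, and a further E-box lies 9 bases after it, outside the stretch printed. That of ELF3 begins 120 bases before the start. An E-box was present in 2 of the 6 entries, beside 20.6% of all 35116 promoters in the table. The grainyhead motif AACCGGTT (0.134% of all promoters), its looser form AACNNGTT (3.52%) and the ETS core CCGGAA or TTCCGG on either strand (17.2%) were in none of the 6. The GRHL1 entry held 52 CpG dinucleotides, the GRHL3 entries 7 and 10, that of ELF3 7 and those of EHF 8 and 3, while the median of all promoters was 14. A match of letters is a description of these windows and not a bound site.

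On GRCh37, the members lie at chr2:10091822-10142405 (GRHL1), chr8:102504667-102681954 (GRHL2), chr1:24526048-24690972 (GRHL3), chr11:65554534-65564685 (OVOL1), chr20:17937623-18039832 (OVOL2), chr8:95653302-95719694 (ESRP1), chr16:68262936-68272005 (ESRP2), chr1:201977073-201986311 (ELF3) and chr11:34642640-34684835 (EHF).

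Libraries held 9851195 to 36639473 counts on genes, so that 3 counts, taken as the smallest detected number, were worth 0.0819 to 0.305 CPM (the counts of a gene scaled to the same total of counts on genes in every library). In HCC4006P1 replicate 1, none of 1679 genes well counted in replicate 2 had a count past a point on chromosome 7, in gene order, and GRHL2 and ESRP1 lie in this stretch. Both genes were therefore taken from replicate 2 alone in HCC4006P1, and the missing stretch raises the CPM of all other genes in replicate 1 by about 22.1%. Marker genes were checked against the labels. The 6 liver markers summed to 29909 CPM in HepG2, to 26.9 CPM in HepG2S3 and to 0.508 CPM in HepG2S1, with 3 of the 6 at 1 CPM or more in HepG2S3 (ALB, APOB and AFP) and 0 in HepG2S1. The lung transcription factor NKX2-1 was at 113 CPM in HCC4006P2 and 56.0 CPM in HCC827P but at 0.0802 CPM in HCC4006P1, although both lines are labelled as HCC4006. In each of the 3 pancreatic lines 4 of 5 duct markers were at 1 CPM or more, with PDX1 below. The same was seen in every lung line, HepG2S1, UWB1.289 and U10, and U100 had all 5. This list therefore does not set the pancreatic lines apart. In the 5 ovarian lines PAX8 was at 357 to 664 CPM and WT1 under 1 CPM, and MUC16 and MSLN were also under 1 CPM in the IGROV-1 lines. Of the 5 blood markers, PTPRC, CD3E and HBB were under 1 CPM in every line. The 3 endothelial markers summed to 47.2 to 71.8 CPM in the pancreatic lines, to 14.9, 89.0 and 66.8 CPM in UWB1.289, U10 and U100, and to at most 24.5 CPM in the others. The part of these differences in the results was not tested.

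GRHL1, the grainyhead-like factor with the broadest range, was present at 1 CPM or more in 17 of 17 cell lines. Its lowest, median and highest levels were 2.53, 9.78 and 20.4 CPM in the 7 parental lines and 1.09, 5.47 and 13.6 CPM in the 10 resistant lines. HepG2 was the highest line, with 20.4 CPM in each of its libraries, and PancB1V was the lowest. GRHL2, which guards the epithelial state in many tissues, was present in 9 lines at 1 CPM or more and stayed below in the other 8. Its parental levels ran from 0.0983 CPM in HepG2 to 90.5 CPM in HCC4006P1 with a median of 33.6 CPM, and its resistant levels from 0.0350 to 45.5 CPM with a median of 0.416 CPM. The 9 lines were thus 5 parental and 4 resistant ones, and HepG2, IGROV-1 and their derivatives lay outside them. GRHL3, a factor of epidermal barrier formation, was the weakest of the family in these lines. It reached 3.26 and 7.13 CPM in the libraries of HCC4006P1, had a median of 0.585 CPM over the 17 lines and had no count in PancB1Q.

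OVOL1 did not exceed a mean of 7.57 CPM in any line, and OVOL2 exceeded 12.3 CPM in U100 alone. OVOL1 was at 1 CPM or more in 7 lines, all of them lung or UWB1.289 lines, and its highest levels were 6.73 and 8.41 CPM in HCC4006P1 and 7.44 CPM in HCC827P, which do not differ beyond the spread of the HCC4006P1 libraries. It had no count in HepG2, PancVB, IGROV-1, IGROV-1/CDDP and HCC4006ER. OVOL2 was at 1 CPM or more in 8 lines, and U100 was highest at 30.0 CPM, ahead of UWB1.289 at 12.3 CPM and U10 at 10.3 CPM. The parental median of OVOL2 was 6.03 CPM and the resistant median 0.415 CPM.

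The splicing regulators had contrasting distributions. ESRP1 was high in UWB1.289 (329 CPM), HCC827P (255 CPM), HCC4006P2 (186 CPM) and HCC4006P1 replicate 2 (149 CPM), was 3.59 CPM in PancVB, and had no count in IGROV-1 and 0.0273 and 0.143 CPM in the HepG2 libraries. ESRP2 was at 1 CPM or more in all 17 lines, with parental levels of 34.7 to 77.8 CPM (median 61.9) and resistant levels of 3.36 to 46.6 CPM (median 34.6). Its highest lines, HCC827P at 77.8 CPM and HepG2 at 77.6 and 67.4 CPM, do not differ beyond the spread of the HepG2 libraries. HCC4006ER stood apart as the lowest line for ESRP2, with 3.64 and 3.08 CPM, below PancB1V at 18.3 CPM.

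ELF3, which responds to inflammatory signals in epithelia, was at 1 CPM or more in 17 lines and EHF, a factor of glandular and airway epithelium, in 13. ELF3 had parental levels of 14.3 to 188 CPM (median 25.8) and resistant levels of 1.09 to 151 CPM (median 31.1), and its HCC4006P1 libraries were far apart, at 270 and 107 CPM. EHF had the highest level of any member before length is considered, 1034 CPM in HCC4006P2, followed by 807 CPM in HCC4006GR and by 905 and 531 CPM in the HCC4006P1 libraries, which span the value of HCC4006GR. Its lowest line was HepG2, at 0.109 and 0.172 CPM. Per kilobase of exon, the leading member was EHF in HCC4006P1, HCC4006P2, HCC4006GR and PancVB (8.04 to 156 CPM per kilobase), ESRP1 in HCC827P and the UWB1.289 family (27.8 to 67.4), ELF3 in HCC4006ER and HCC827GR (5.05 and 21.0) and ESRP2 in the other lines. The labels give a stranded whole-transcript kit for every library, while the study's methods also describe a 3′ end kit, for which a length scale would not hold.

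**Figure D1:**
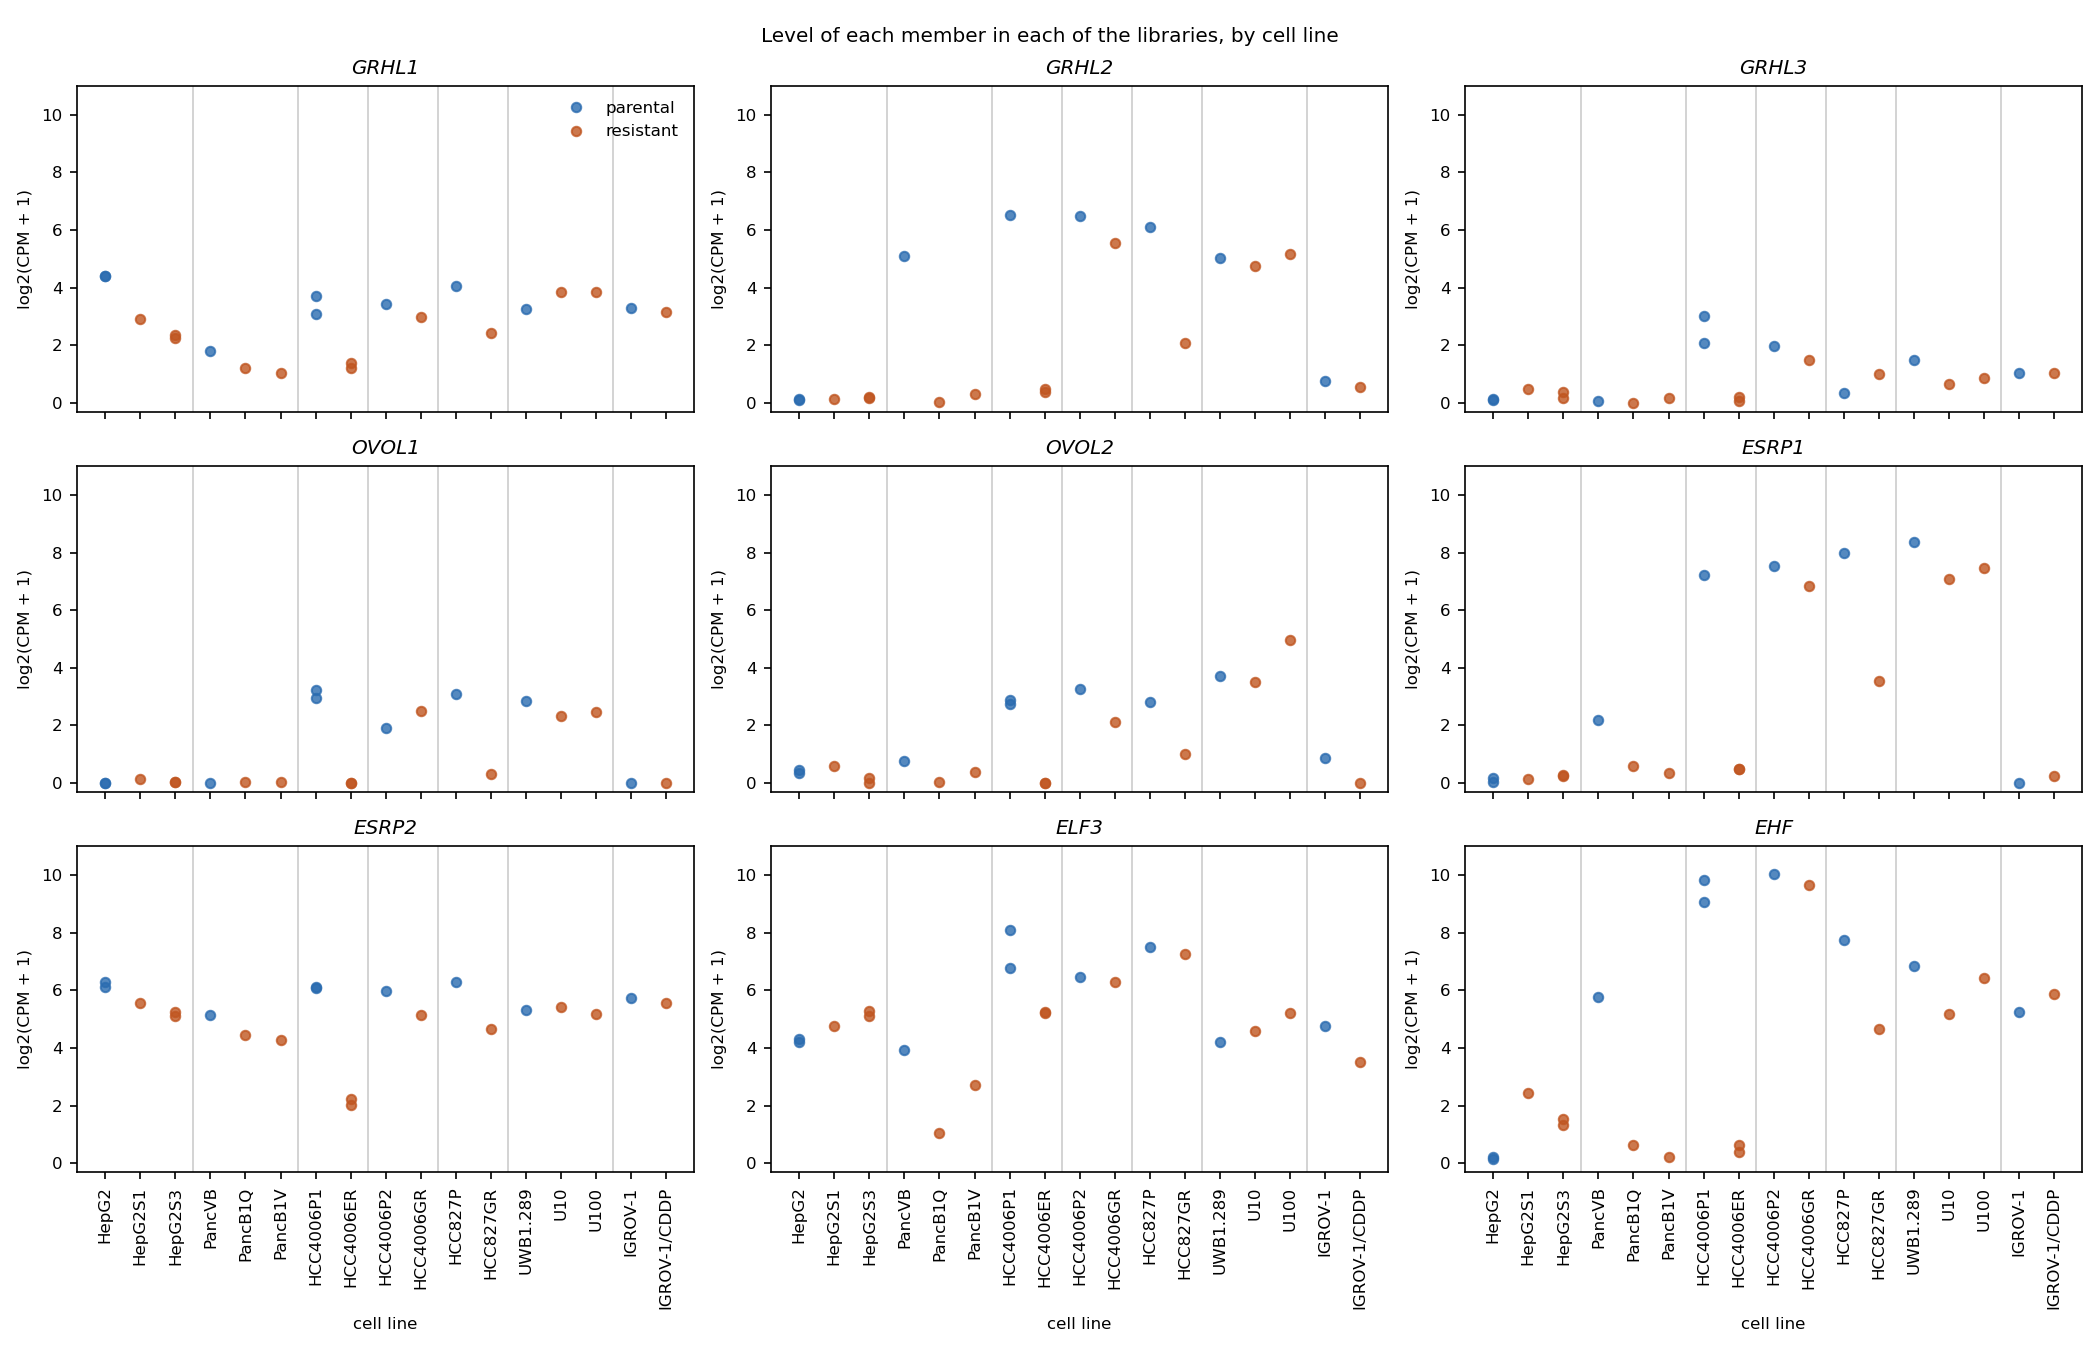
Level of the 9 members in each library as log2(CPM + 1), by cell line, with parental lines in blue, resistant lines in orange and a grey line between families. GRHL1, ESRP2 and ELF3 are present in all 17 lines, while GRHL2, OVOL1, OVOL2 and ESRP1 are under 1 CPM in the HepG2 and IGROV-1 families. The HCC4006P1 library without counts on chromosome 8 is left out for GRHL2 and ESRP1.

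Across the 10 pairs, the change of each member was taken as the difference of log2(CPM + 1), which understates the change of low genes, and 1 unit was taken as the fold to pass. A counting interval (95% Wilson limits of both lines, combined) goes with each change and covers counting error only. Each member was followed in the pairs where its mean was at least 1 CPM. By the interval, ESRP2 was lower in the resistant line in 8 of 10 such pairs and higher in 0, GRHL1 lower in 7 of 10 and higher in 2, and ELF3 lower in 6 of 10 and higher in 4. EHF was lower in 7 of 9 pairs and higher in 2, ESRP1 lower in 7 of 7 and GRHL2 lower in 6 of 7 and higher in 0. With 5 such pairs each, GRHL3 was lower in 4 and higher in 0, and OVOL1 and OVOL2 were lower in 3 and higher in 1. The share of all genes lower or higher by this interval was not counted, so these counts have no background to be read against. Pairs that share a parental line share its library, so they are not separate counts of the parental side.

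**Figure D2:**
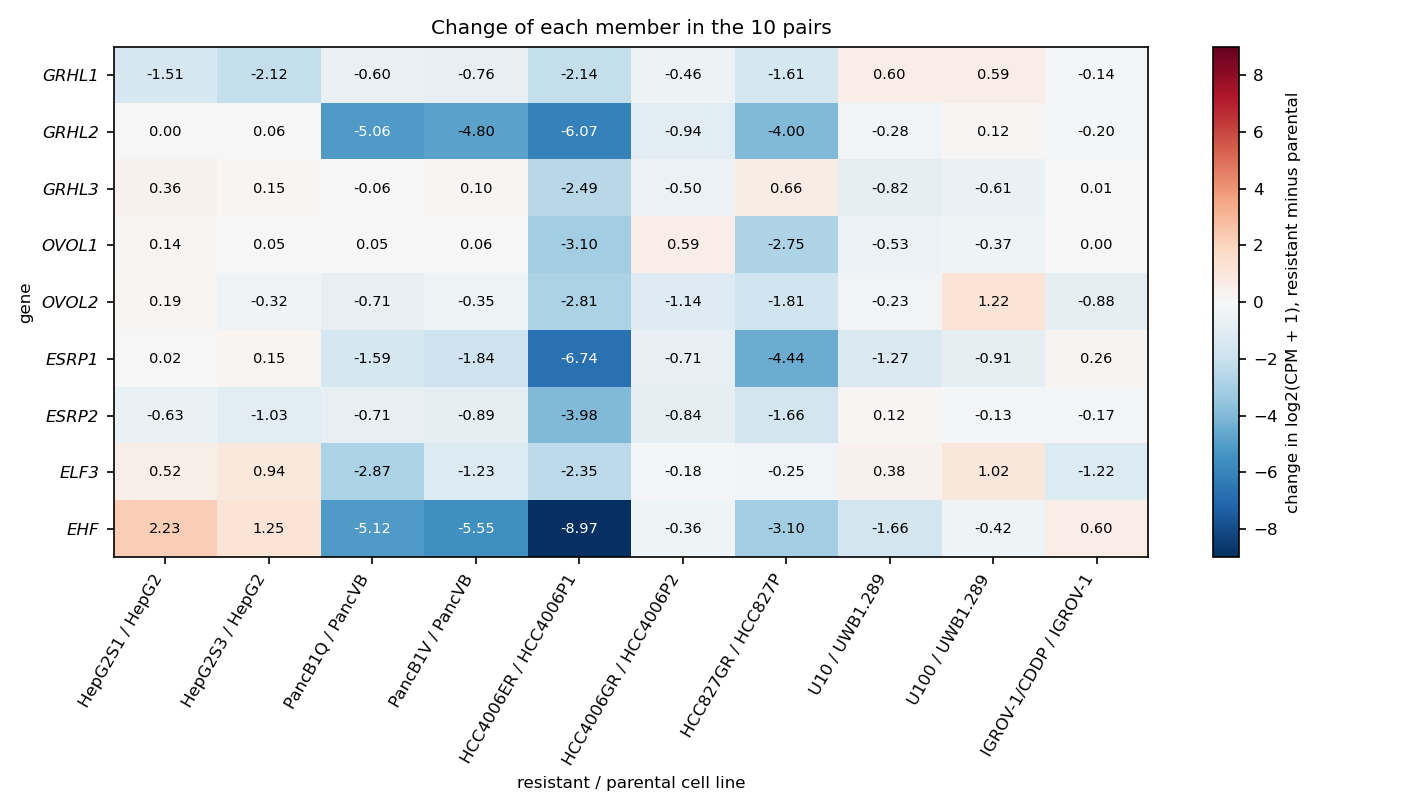
Change of the 9 members in the 10 pairs, as resistant minus parental log2(CPM + 1), with lower values in blue and higher values in red. The HCC4006ER column is blue in all 9 rows, the HCC827GR column in 8 and the U100 column is mixed, with 1.22 for OVOL2 and 1.02 for ELF3.

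HCC4006ER, the erlotinib-resistant line, had lower levels of all 9 regulators than HCC4006P1. Among the transcription factors, EHF was at 905 and 531 CPM in HCC4006P1 and at 0.557 and 0.308 CPM in HCC4006ER. GRHL1 went from 12.0 and 7.54 CPM to 1.32 and 1.59 CPM, and GRHL3 from 3.26 and 7.13 CPM to 0.0506 and 0.154 CPM. The libraries of the 2 lines did not overlap for either gene, and the share of all genes without overlap was not counted. OVOL1 had 6.73 and 8.41 CPM in HCC4006P1 and OVOL2 6.36 and 5.69 CPM, and neither gene had a count in HCC4006ER. Against a floor of 3 counts per library, OVOL1 was at least 45.2-fold lower and OVOL2 at least 35.4-fold lower. These bounds rescale HCC4006P1 replicate 1 for its missing stretch and take no account of counting error in HCC4006P1. ELF3 kept the highest level of the members in HCC4006ER, 36.9 and 35.6 CPM against 270 and 107 CPM in HCC4006P1. The splicing regulator ESRP2 was at 68.7 and 66.7 CPM in HCC4006P1 and at 3.64 and 3.08 CPM in HCC4006ER. GRHL2 was at 90.5 CPM in the usable HCC4006P1 library and at 0.304 and 0.411 CPM in HCC4006ER, and ESRP1 at 149 CPM and at 0.405 and 0.411 CPM.

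edgeR's quasi-likelihood test with Benjamini-Hochberg adjustment compared HCC4006ER with HCC4006P1 over the 13621 genes outside the missing stretch. All 7 members tested fell, in a comparison where 24.5% of all genes tested were called lower. The fitted log2 fold change was -10.60 (SE 0.29, adjusted p = 3.32e-06) for EHF, -4.30 (SE 0.20, adjusted p = 1.08e-05) for ESRP2 and -2.68 (SE 0.25, adjusted p = 0.000215) for GRHL1. It was -5.61 (SE 0.80, adjusted p = 0.00145) for GRHL3 and -2.27 (SE 0.30, adjusted p = 0.000973) for ELF3. OVOL1 (adjusted p = 0.000232) and OVOL2 (adjusted p = 0.000111) also passed the threshold of 0.05, and their fitted folds depend on the prior count. GRHL2 and ESRP1 were tested in edgeR's fit over 20 libraries, without HCC4006P1 replicate 1, in which all 9 members fell beside 13% of all 21638 genes: GRHL2 by 8.08 (SE 0.23, adjusted p = 1.18e-05) and ESRP1 by 8.61 (SE 0.30, adjusted p = 1.55e-05) on the log2 scale. By the fold of 1 unit, all 9 members were lower beside 11.8% of all genes with a mean of at least 1 CPM in the pair.

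**Figure D3:**
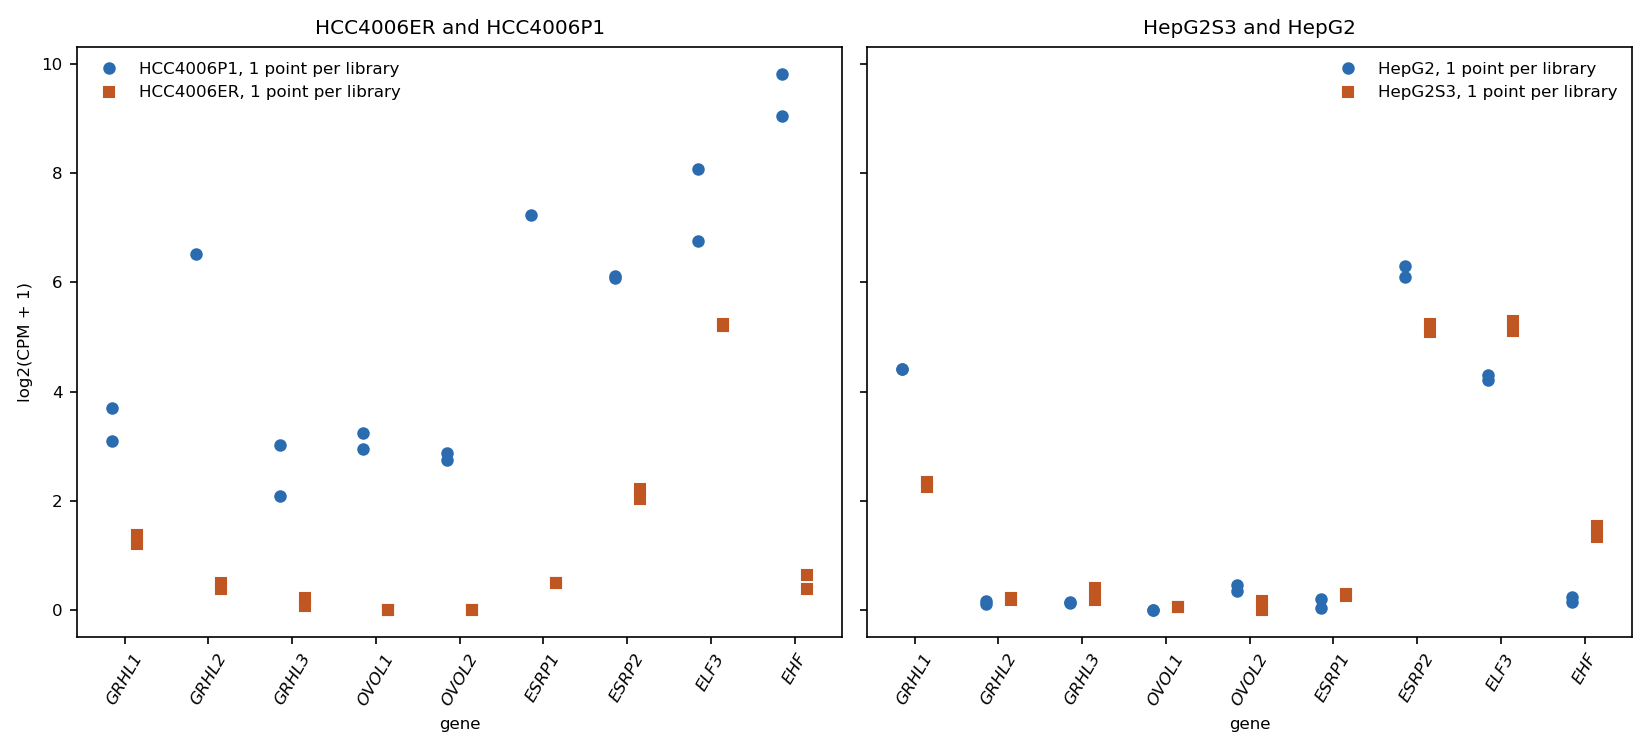
Level of the 9 members as log2(CPM + 1) in each library of the 2 pairs with repeated libraries, HCC4006P1 (circles) with HCC4006ER (squares), and HepG2 (circles) with HepG2S3 (squares). Every HCC4006ER library lies below every HCC4006P1 library for all 9 genes, while in the HepG2 pair GRHL1 and ESRP2 are lower and ELF3 and EHF higher in HepG2S3. GRHL2 and ESRP1 are drawn from 1 HCC4006P1 library. How many of all genes separate in this way was not counted. edgeR called 6559 of 13621 genes in the HCC4006ER pair and 10744 of 16929 in the HepG2S3 pair.

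HCC827GR, resistant to gefitinib, had 7 regulators lower than HCC827P by 1 unit or more, and ELF3 lower by less (-0.25). GRHL2 was at 67.7 CPM in HCC827P and 3.28 CPM in HCC827GR, ESRP1 at 255 and 10.7 CPM, and EHF at 215 and 24.1 CPM. OVOL1 went from 7.44 to 0.257 CPM, OVOL2 from 6.11 to 1.03 CPM, ESRP2 from 77.8 to 23.9 CPM and GRHL1 from 15.6 to 4.44 CPM. ELF3 was the exception among the abundant members, at 180 and 151 CPM, and GRHL3 was low in both lines, at 0.288 and 1.03 CPM. With 1 library per line, 7 of the 8 members with a mean of at least 1 CPM were lower by 1 unit or more, beside 7.79% of all such genes. The same 7 fell in the fit over 20 libraries, which called 5.92% of all genes lower and assumes that single libraries vary like the repeated ones: GRHL2 by 4.40 (SE 0.24, adjusted p = 0.000313), ESRP1 by 4.60 (SE 0.31, adjusted p = 0.000467) and EHF by 3.19 (SE 0.24, adjusted p = 0.000700). The other 4 had adjusted p of 0.00349 (ESRP2), 0.00551 (GRHL1), 0.00758 (OVOL1) and 0.0448 (OVOL2).

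HCC4006GR, derived with the same drug from HCC4006P2, had 8 regulators below and OVOL1 above the parental level, by less than 1 unit except for OVOL2. EHF was at 1034 CPM in HCC4006P2 and 807 CPM in HCC4006GR, ESRP1 at 186 and 113 CPM, ELF3 at 87.1 and 76.7 CPM and ESRP2 at 61.9 and 34.2 CPM. GRHL2 went from 88.4 to 45.5 CPM, OVOL2 from 8.67 to 3.38 CPM and OVOL1, in the other direction, from 2.79 to 4.70 CPM. GRHL1 was at 9.92 and 6.95 CPM and GRHL3 at 2.94 and 1.79 CPM. OVOL2 alone (-1.14, interval -1.52 to -0.75) was lower by 1 unit or more, beside 7.48% of all genes. In the fit over 20 libraries GRHL2 alone fell (by 0.92, SE 0.19, adjusted p = 0.0367), beside 2.75% of all genes.

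The changes of the lung pairs were then compared with each other in the fit over 20 libraries, a comparison chosen after the values were seen. The change in HCC4006ER was lower than that in HCC4006GR for 9 of 9 members, beside 7.63% of all genes, with differences from -1.54 (SE 0.24, adjusted p = 0.00765) for ELF3 to -10.04 (SE 0.38, adjusted p = 0.000118) for EHF among the genes counted in every line. The change in HCC827GR was lower than that in HCC4006GR for 4 members, ESRP1 (-3.92, SE 0.39, adjusted p = 0.00326), GRHL2 (-3.48, SE 0.30, adjusted p = 0.00225), EHF (-2.87, SE 0.32, adjusted p = 0.00491) and OVOL1 (-5.65, SE 0.69, adjusted p = 0.0166), beside 2.95% of all genes. For ESRP2 this difference was -0.92 (SE 0.29, adjusted p = 0.123) and for GRHL1 -1.38 (SE 0.35, adjusted p = 0.0718), neither past the threshold. HCC4006P1 lacked the lung marker NKX2-1 that HCC4006P2 held, and the part of this difference between the parental lines was not tested.

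**Figure D4:**
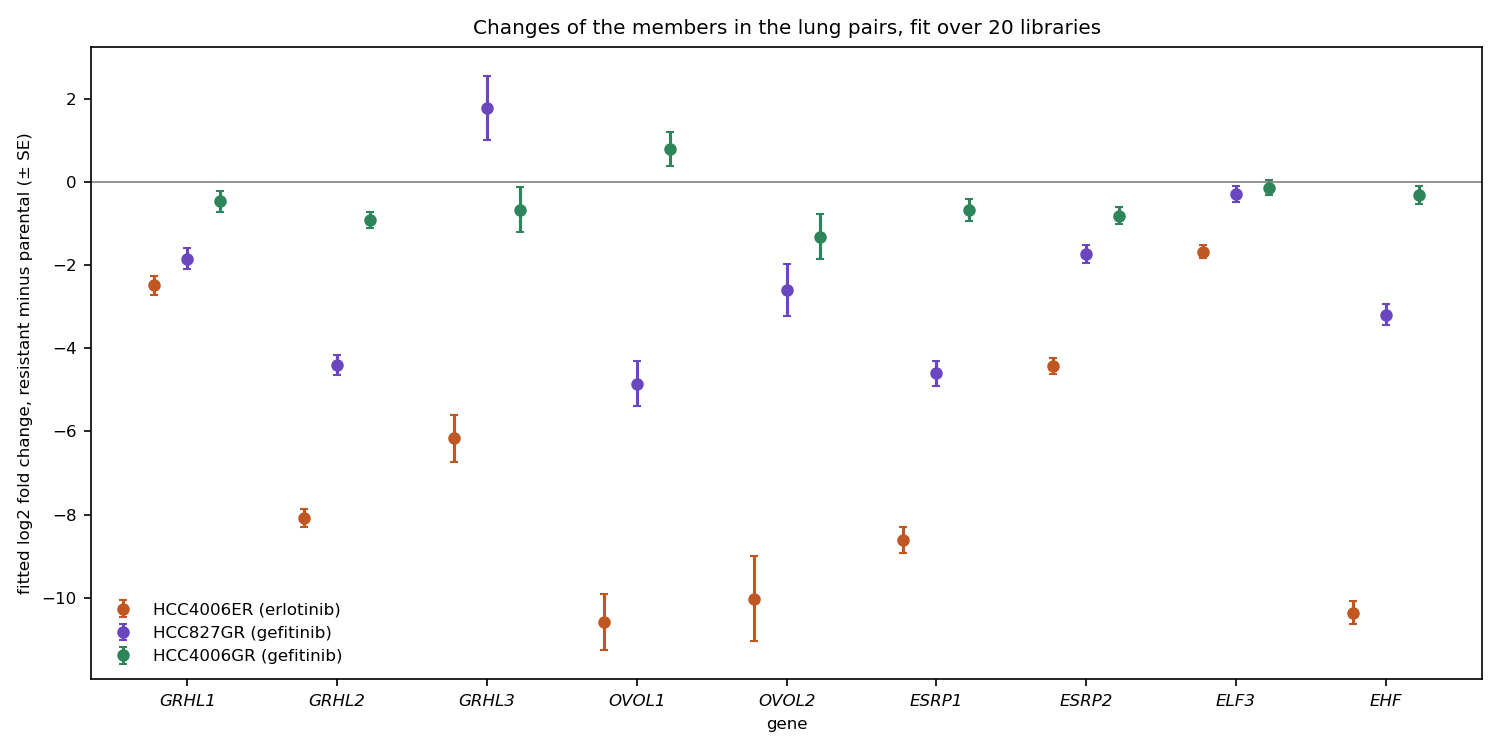
Fitted log2 fold change (resistant minus parental, ± SE) of the 9 members in the 3 lung pairs, from the fit over 20 libraries. HCC4006ER (orange) is lowest for all 9 genes, HCC827GR (purple) lies between for 8 of them, and HCC4006GR (green) stays between -1.32 and 0.79. OVOL1 and OVOL2 had no count in HCC4006ER, so their fitted values there depend on the prior count.

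In the pancreatic pairs, which share the PancVB library, the members lower by 1 unit or more were the same in PancB1Q and PancB1V. GRHL2 was at 33.6 CPM in PancVB, 0.0350 CPM (1 count) in PancB1Q and 0.242 CPM in PancB1V, and EHF at 53.2, 0.560 and 0.161 CPM. ESRP1 was low in PancVB already, at 3.59 CPM, with 0.525 and 0.282 CPM in the derivatives. ELF3 was at 14.3 CPM in PancVB, 1.09 CPM in PancB1Q and 5.52 CPM in PancB1V. The difference between the derivatives rests on 1 library each and was not tested. ESRP2 stayed well above the detection floor, at 34.7, 20.7 and 18.3 CPM, and GRHL1 was at 2.53, 1.33 and 1.09 CPM. In each pair 4 of the 6 members with a mean of at least 1 CPM (GRHL2, ESRP1, ELF3 and EHF) were lower by 1 unit or more, beside 9.41% of all genes in PancB1Q and 7.24% in PancB1V. The same 4 fell in PancB1Q in the fit over 20 libraries (5.95% of all genes called lower), with adjusted p from 0.000241 for GRHL2 to 0.00843 for ESRP1. In PancB1V 6 members fell (6.12% of all genes), the 4 with adjusted p from 0.000202 for GRHL2 to 0.00753 for ELF3, together with ESRP2 (-0.88, SE 0.21, adjusted p = 0.0337) and GRHL1 (-1.18, SE 0.30, adjusted p = 0.0451).

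In both sorafenib-resistant HepG2 derivatives EHF was called higher, and GRHL1 and ESRP2 lower, than in HepG2. EHF, nearly undetected in HepG2 at 0.109 and 0.172 CPM, was at 4.36 CPM in HepG2S1 and at 1.53 and 1.89 CPM in HepG2S3. ELF3 was at 18.9 and 17.4 CPM in HepG2, 26.4 CPM in HepG2S1 and 38.1 and 33.5 CPM in HepG2S3. GRHL1 went the other way, from 20.4 CPM in each HepG2 library to 6.50 CPM in HepG2S1 and 4.09 and 3.75 CPM in HepG2S3, and ESRP2 from 77.6 and 67.4 CPM to 46.5 CPM and to 33.2 and 36.7 CPM. The HepG2 and HepG2S3 libraries did not overlap for any of these 4 genes. The share of all genes without overlap was not counted, and 10744 of 16929 genes tested were called in this pair. GRHL2, GRHL3, OVOL1, OVOL2 and ESRP1 stayed at or below 0.508 CPM in all 5 libraries.

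In edgeR's test of HepG2S3 against HepG2, 4 members had enough counts to be tested. GRHL1 (-2.69, SE 0.18, adjusted p = 0.000194) and ESRP2 (-1.37, SE 0.15, adjusted p = 0.000961) fell, beside 32.1% of all genes, and EHF (3.26, SE 0.39, adjusted p = 0.00136) and ELF3 (0.66, SE 0.16, adjusted p = 0.0146) rose, beside 31.4%. ELF3 did not pass when either HepG2S3 library was left out (adjusted p = 0.194 and 0.0931). Scaling by library totals instead of TMM factors moved the median of all genes by 0.30 and changed the split of called genes from 5308 higher and 5436 lower to 6761 higher and 4304 lower, and the 4 members kept their directions. By the fold of 1 unit, GRHL1 and ESRP2 were lower of the 3 members with a mean of at least 1 CPM (17.4% of all genes). In HepG2S1, which shares the HepG2 libraries, GRHL1 alone of 4 such members was lower (18.3% of all genes) and EHF alone higher (25.8%). The fit over 20 libraries called GRHL1 and ESRP2 lower in HepG2S1 (23.6% of all genes) and EHF higher (20.4%), while ELF3 did not pass there (0.16, SE 0.17, adjusted p = 0.499). In HepG2S3 that fit also called OVOL2 lower (-2.56, SE 0.81, adjusted p = 0.0364), beside 28.8% of all genes, from 10 and 13 counts in HepG2 and 4 and 0 in HepG2S3. By edgeR, OVOL2 did not pass in the 2 lines alone with no filter on low counts (adjusted p = 0.0631). Its fitted change there was -2.78 without HepG2 replicate 1 and -1.63 without HepG2S3 replicate 2. Without HepG2S3 replicate 1 it was -6.57, where the remaining HepG2S3 library had no count.

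Compared with HCC4006ER in the fit over 20 libraries, the change in HepG2S3 was higher for EHF (13.60, SE 0.39, adjusted p = 2.06e-06), ELF3 (2.33, SE 0.20, adjusted p = 0.000141) and ESRP2 (3.04, SE 0.23, adjusted p = 7.83e-05), beside 20.5% of all genes. GRHL1 fell in each of the 2 tests, and its changes differed by -0.22 (SE 0.30, adjusted p = 0.621). The other 5 members also passed, but they were at or below 0.508 CPM in every library of HepG2 and its derivatives.

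In the olaparib-resistant derivatives of UWB1.289, few members were called. EHF was at 114 CPM in UWB1.289, 35.3 CPM in U10 and 85.0 CPM in U100, and ESRP1 at 329, 136 and 175 CPM. GRHL2 was at 32.0, 26.2 and 34.8 CPM, ESRP2 at 38.5, 41.8 and 34.9 CPM, and OVOL1 at 6.20, 4.00 and 4.58 CPM. GRHL3 was at 1.81, 0.585 and 0.839 CPM, lower beyond counting error in both derivatives. OVOL2 was at 12.3, 10.3 and 30.0 CPM, ELF3 at 17.5, 23.1 and 36.4 CPM, and GRHL1 at 8.60, 13.6 and 13.4 CPM. ESRP1 and EHF were lower by 1 unit or more in U10 (5.01% of all genes) and no member was in U100 (1.76%), where OVOL2 and ELF3 were higher (6.37% of all genes). U10 and U100 share the UWB1.289 library. In the fit over 20 libraries EHF (-1.66, SE 0.23, adjusted p = 0.0162) and ESRP1 (-1.25, SE 0.26, adjusted p = 0.0470) fell in U10, beside 1.79% of all genes. No member passed in U100, where 0.287% of all genes were called lower, and ELF3 had a change of 0.97 (SE 0.20, adjusted p = 0.0715) and OVOL2 of 1.20 (SE 0.49, adjusted p = 0.318).

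In IGROV-1/CDDP, ELF3 was the member called. ELF3 had 25.8 CPM in the parental and 10.5 CPM in the resistant line, and EHF 37.3 and 57.0 CPM. ESRP2 was at 52.5 and 46.6 CPM, GRHL1 at 8.77 and 7.87 CPM and GRHL3 at 1.06 and 1.07 CPM. OVOL2 went from 23 counts (0.837 CPM) to 0, which is at least 7.05-fold lower against a floor of 3 counts. ELF3 alone of 5 members with a mean of at least 1 CPM was lower by 1 unit or more (7.19% of all genes), and it fell in the fit over 20 libraries (-1.22, SE 0.19, adjusted p = 0.0111), beside 4.67% of all genes called lower. EHF did not pass there (0.69, SE 0.23, adjusted p = 0.112).

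Over the 7 parental cell lines, each with its resistant lines summed and the parental line as a block, edgeR called 0 of 15847 genes (0%), with 720 genes at an unadjusted p under 0.05, and DESeq2 called 99. None of the 8 members tested passed under either tool. All 8 had negative fitted changes, from -0.52 (SE 0.86) for GRHL3 to -2.65 (SE 1.37) for GRHL2, each with an adjusted p of 0.985 or above. The median fitted change of all genes was 0.003, and the share of all genes with a negative change was not counted. ESRP2 (-1.20, SE 0.49), GRHL1 (-1.12, SE 0.46) and OVOL2 (-2.38, SE 1.03) had the changes largest in relation to their errors in edgeR's fit, and the order differed in DESeq2.

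The opposing factors and the epithelial genes of the same pathway were followed in the same fits. In edgeR's test of HCC4006ER against HCC4006P1, all 6 opposing factors tested rose, beside 23.6% of all genes, with a median of 1.76 beside 0.01 over all genes. ZEB2 had a change of 5.80 (SE 0.24, adjusted p = 7.51e-06), and PRRX1 went from 0.0524 CPM, below 3 counts per library, to 2.95 CPM. All 9 epithelial genes tested fell, beside 24.5% of all genes, with a median of -7.34. Among them were RAB25 (-10.75, SE 0.26, adjusted p = 2.29e-06), a small GTPase of apical recycling, and PRSS8 (-9.54, SE 0.34, adjusted p = 5.24e-06), which encodes the protease prostasin. In HCC4006GR, where GRHL2 alone fell among the members, 4 of 7 opposing factors rose (ZEB1, ZEB2, SNAI1 and TWIST1) and 1 of 12 epithelial genes, MAL2, fell in the fit over 20 libraries, beside 4.6% of all genes called higher and 2.75% lower. ZEB1 was at 0.588 CPM in HCC4006P2 and 13.8 CPM in HCC4006GR, and CDH1, which encodes E-cadherin, at 482 and 499 CPM. In HCC827GR, 2 opposing factors rose (7.86% of all genes), 1 fell and 8 of 12 epithelial genes fell (5.92%): ZEB1 went from 6.23 to 44.1 CPM, ZEB2 from 1.73 to 50.5 CPM and CDH1 from 748 to 53.3 CPM.

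In HepG2S3 against HepG2, 6 opposing factors rose (31.4% of all genes) and SNAI1 fell (32.1%), and the epithelial genes split into 3 that rose and 7 that fell of 11 tested. TWIST1, TWIST2 and PRRX1 had no count in HepG2 and were at 28.2, 1.43 and 1.87 CPM in HepG2S3. CDH1 was at 144 CPM in HepG2 and 0.528 CPM in HepG2S3, whereas CLDN7, a claudin of tight junctions, was at 0.0416 and 30.4 CPM. In PancB1Q and PancB1V, ZEB2 alone of the opposing factors rose (7.63% and 8.02% of all genes), with 5.34 CPM in PancVB and 12.3 and 18.0 CPM in the derivatives, while ZEB1 was at 69.3, 56.6 and 54.0 CPM. The fit called 5.95% and 6.12% of all genes lower in these pairs. In the same pairs 5 and 7 of 12 epithelial genes fell, among them MAL2, with -5.48 (SE 0.28, adjusted p = 0.000316) and -4.97 (SE 0.27, adjusted p = 0.000280). In U10, ZEB2 alone among the opposing factors and SPINT2 alone among the epithelial genes rose (2.72% of all genes), and in U100 none of either list was called. In IGROV-1/CDDP, TWIST1 fell and 5 of 12 epithelial genes fell (4.67% of all genes called lower), CDH1 from 13.0 to 0.593 CPM among them.

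**Figure D5:**
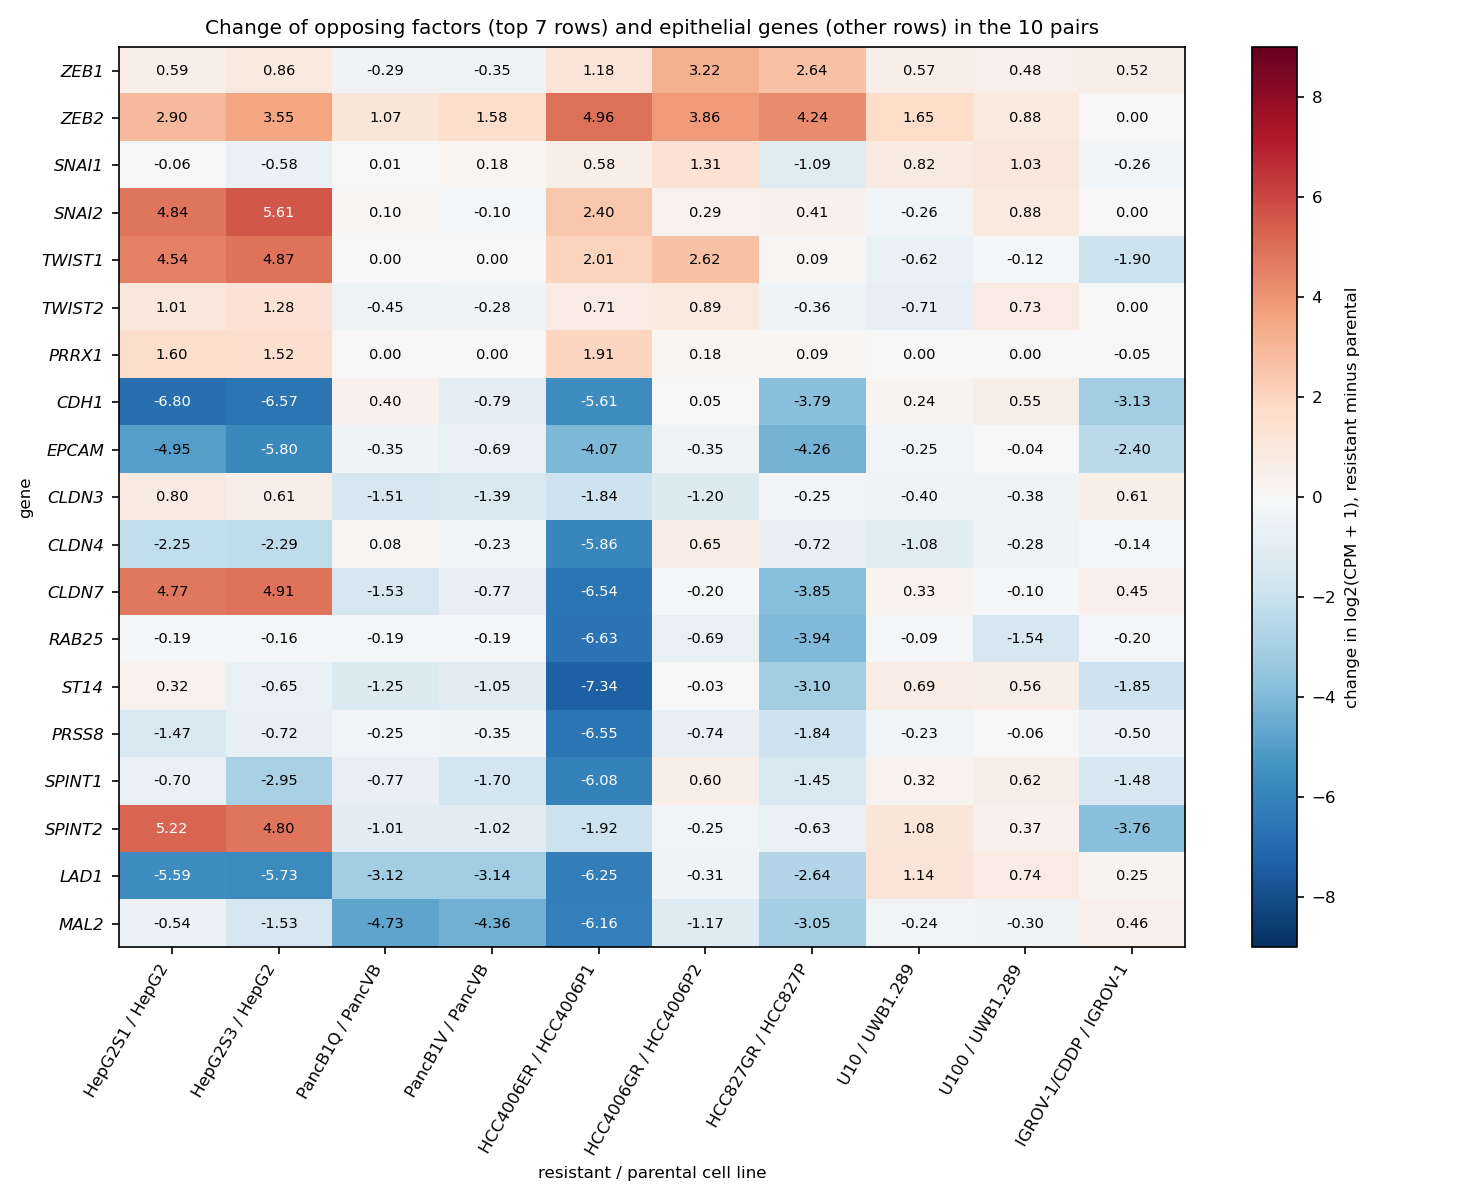
Change of 7 opposing factors (upper rows) and 12 epithelial genes (lower rows) in the 10 pairs, as resistant minus parental log2(CPM + 1). ZEB2 is higher by 0.88 or more in 9 pairs and at 0 in both IGROV-1 lines, and the epithelial genes are lower together in HCC4006ER, with -1.84 to -7.34, but between -1.54 and 1.14 in the UWB1.289 pairs.

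Of the 9 other splicing regulators, RBM47, an RNA-binding protein also enriched in epithelia, fell in HCC4006ER (-3.75, SE 0.14, adjusted p = 6.31e-06) and in HepG2S3 (-2.12, SE 0.39, adjusted p = 0.00569). QKI, which favours mesenchymal splice forms, rose in HCC4006ER (1.51, SE 0.12, adjusted p = 0.000118) and fell in HepG2S3 (-1.04, SE 0.13, adjusted p = 0.00141). In the test of HCC4006ER 2 of the 8 tested rose and 1 fell, and in that of HepG2S3 2 of 9 rose and 3 fell, shares near those of all genes (23.6% and 24.5%, 31.4% and 32.1%). In PancB1Q and PancB1V, RBM47 went from 17.6 CPM to 0.525 and 0.523 CPM and QKI from 102 CPM to 383 and 430 CPM. Genes whose transcripts the ESRPs splice moved without a common direction, 1 up and 2 down of 5 tested in HCC4006ER and 2 up and 3 down of 6 in HepG2S3. CD44 fell by 3.86 (SE 0.16, adjusted p = 7.59e-06) in HCC4006ER, and in the HepG2 pair it rose from 0.0703 to 159.9 CPM (adjusted p = 2.59e-05). Counts per gene do not show which splice form was made. Among relatives of the member families, SPDEF, an ETS factor of secretory cells, fell with ELF5 and TFCP2L1 in HCC4006ER, 3 of 5 tested, while UBP1 rose. In HepG2S3, 2 of 4 rose and 2 fell. For the spliced genes and the relatives, the shares of all genes called are those given above for the same tests.

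Likeness of levels was described by Pearson's r of log2(CPM + 1) over the 17 lines, which share parental origin and, in each library, depth. OVOL1 and ESRP1 (0.96 over 17 lines, 0.94 over the 7 parental lines), GRHL2 and ESRP1 (0.93 and 0.87) and OVOL2 and ESRP1 (0.92 and 0.96) were the most alike members. ESRP2 was far from its paralogue ESRP1 (0.34 and 0.11) and nearer to GRHL1 (0.76 and 0.80). Among 14602 genes with a symbol and a mean of at least 1 CPM, the genes most like ESRP1 were ST14 (0.97), MACC1 (0.96) and TMEM30B (0.96), those like GRHL2 included ADGRF1 (0.95) and TMEM30B (0.94), and those most like EHF were MAP3K9 (0.93), SPINT1 (0.89) and CNKSR1 (0.89). OVOL2 was most like TMEM125 (0.96), IQANK1 (0.95) and MACC1 (0.95), and OVOL1 most like ESRP1 (0.96), BSPRY (0.96) and TMPRSS4 (0.95). GRHL1 was nearest to LRRC8B (0.89), ERBB3 (0.87) and CRB3 (0.86), GRHL3 to FAM83E (0.88), SULT2B1 (0.84) and SOX15 (0.83), ELF3 to ALDOA (0.90), BLOC1S4 (0.87) and PCED1B (0.87), and ESRP2 to KRT19 (0.83), RTKN (0.79) and LRRC8B (0.77). Levels of ZEB1 ran against those of OVOL2 (-0.91), ESRP1 (-0.89) and OVOL1 (-0.85), and those of ZEB2 most against ESRP2 (-0.78). Other opposing factors ran with members: SNAI1 had a positive r with every member but ESRP2, up to 0.54 with ELF3, and TWIST2 likewise, up to 0.72 with ELF3.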

How the data were processed

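The deposited values were raw counts per gene and library; per the labels and the study's methods, the authors clipped adapters, aligned reads to hg19 with Bowtie and TopHat (STAR for a 3′ end kit), sorted them with SAMtools and counted them per gene with HTSeq. Which libraries came from that kit is not given in the sources used here. Rows that name no gene (28.0 to 42.8% of reads) were left out of library sizes. CPM used counts on genes as the total. Members were matched by Ensembl identifier, through GENCODE names for 45100 of 53515 genes (84.3%). Tests used edgeR 4.0.16 in R 4.3.3 (quasi-likelihood F test, TMM scaling, genes filtered on low counts, Benjamini-Hochberg adjustment over all genes tested, threshold 0.05). An SE is the fitted log2 fold change divided by the square root of F. HepG2S3 and HCC4006ER were tested on their own libraries, the latter without genes past the missing stretch of HCC4006P1 replicate 1. The fit over 20 libraries left that library out and had 3 residual degrees of freedom, so a line with 1 library is assumed to vary like the repeated ones. The scripts were tested on simulated data with 200 changed genes. Alternatives were DESeq2 1.42.0, other scalings, filters and pseudocounts, a replicate block and leaving out libraries.

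The members were given by symbol. From the lists of opposing factors, epithelial genes, splicing regulators, spliced genes and relatives, the rule named the genes with the largest absolute log2 fold change in a comparison. ZEB1, CDH1, QKI, CD44 and other list genes named beside them were chosen after their values were seen. For likeness the 3 genes with the highest r were named, except 1 that is not reported here. The members and lists were chosen with earlier results of these data known.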

Additional observations from a re-analysis of the deposited data

Results flagged for a closer look

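These values were picked out because the change in 1 resistant line differed from the change in another by edgeR's test of the difference in the fit over 20 libraries, and the comparisons were chosen after the values were seen. The change in HCC4006ER minus the change in HCC4006GR was -10.04 for EHF, -7.93 for ESRP1, -7.17 for GRHL2, -5.49 for GRHL3, -3.61 for ESRP2, -2.02 for GRHL1 and -1.54 for ELF3 on the log2 scale. It was -11.38 for OVOL1 and -8.71 for OVOL2, which had no count in HCC4006ER, so these fitted values depend on the prior count and are no bound.

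The change in HCC827GR minus the change in HCC4006GR was -2.87 for EHF, -3.92 for ESRP1, -3.48 for GRHL2 and -5.65 for OVOL1. The change in HepG2S3 minus the change in HCC4006ER was 13.60 for EHF, 2.33 for ELF3 and 3.04 for ESRP2. HCC4006ER and HCC4006GR come from parental lines that differ in NKX2-1, and the 6 liver markers summed to 29909 CPM in HepG2 and 26.9 CPM in HepG2S3. The part of these differences was not tested.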

How the results depend on the processing

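Of the test values under alternatives, 197 kept their direction and side of the threshold, 2 lost the call and 1 reversed. ELF3 in HepG2S3 lost it without either HepG2S3 library, and GRHL3 over the 7 parental lines, never called, ran from -0.92 to 0.11 when 1 parental line was left out. All 7 members tested in HCC4006ER stayed called in every setting. The number of genes called there, 6559, became 3417 with all genes kept, 8134 with a replicate block and 4150 to 10281 when 1 library was left out. In HepG2S3 it was 10744, 10561 with a replicate block and 7341 to 13242 when 1 library was left out. The deviations of libraries with the same number had a correlation of 0.0153 (HepG2, HepG2S3) and 0.388 (HCC4006P1, HCC4006ER), with 2 pairs each. The main tests did not pair libraries by number. Whether same-numbered libraries of HCC4006P1 and HCC4006ER share more than a number was not tested. Over the 7 parental lines DESeq2 called 99 genes and edgeR 0. Counts of members past 1 unit changed by the largest ratios, or from 0, in 3 lines. In HepG2S1 the lower count of 1 became 2 with TMM-scaled libraries and 2 in the fit over 20 libraries. In HepG2S3 the higher count of 0 became 2 in that fit, and leaving out 1 library gave 1 to 2 lower and 0 to 1 higher. In U100 the lower count of 0 became 1 with a pseudocount of 0.1 CPM, and the higher count of 2 became 1 with TMM-scaled libraries and 0 in the fit over 20 libraries. Smaller changes of count also occurred. Among them, that fit called 6 members lower in PancB1V, beside 4 by the fold, and 3 in HepG2S3, beside 2 by the fold. Of the pair values, 210 stayed within their spread and 67 moved beyond it, most often with the pseudocount of 0.1 CPM. The causes were not tested. Members near the floor of 3 counts cannot be compared at this depth.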
